A study of Mus musculus with 4 samples.

Results

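The 10 genes followed here serve MHC class I antigen presentation, and their RNA was measured in RNA sequencing libraries of mouse bone marrow B cells. They were selected by gene symbol, with earlier results of these data known. Included are the class I heavy chain genes H2-K1, H2-D1 and H2-T23 and the light chain gene B2m. The others are the peptide loading genes Tap1, Tap2 and Tapbp, the immunoproteasome genes Psmb8 and Psmb9, and the transactivator gene Nlrc5. All 10 were among the 24411 gene symbols of each library, and all 10 passed the filter on low counts that kept 12617 genes. The libraries came from cells sorted from marrow of tibia and femur for B220, the form of CD45 carried by B lineage cells. There were 2 libraries of wildtype mice and 2 of mice labelled Arid5b overexpression, where Arid5b is a DNA-binding protein of the ARID family. Strain, age, sex, the promoter of the overexpression and whether animals were pooled are not given in the sources used here. The p-values therefore measure only the spread between these libraries, which may be technical.

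Class I molecules show peptides from inside the cell to CD8 T cells and to natural killer cells, and nearly all nucleated cells carry them. The proteasome cuts proteins into peptides, the TAP transporter moves the peptides into the endoplasmic reticulum, and tapasin helps to load them onto a heavy chain paired with beta-2-microglobulin. NLRC5 has no DNA-binding domain of its own and is recruited to class I promoters by the RFX, CREB/ATF and NF-Y factors, whereas its relative CIITA acts in the same way on class II genes.

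The libraries held between 14196665 and 20356404 reads assigned to genes. Arid5b checks the labels: it lay 4.41 log2 units above the wildtype mean in overexpression-labelled library 1 (SE 0.126, limma adjusted p = 1.28e-11) and -0.22 from it in overexpression-labelled library 2 (SE 0.145, limma adjusted p = 0.493), so the second library goes against its label. Library 1 also stood apart over all genes, with a Pearson r across genes of 0.786 to 0.792 with the other libraries, which correlated among themselves at 0.964 to 0.982. Each overexpression-labelled library is therefore given on its own as well as in its group. Wildtype library 1 had 24 reads of Xist, a transcript of the inactive X chromosome, against 68540 to 132008 in the other 3 libraries, and 3260 reads of the Y-linked gene Ddx3y against 0 or 1, so the wildtype pair, which supplies the spread, differs in sex-linked genes. The B lineage markers Cd79a, Cd79b, Ptprc (the gene of CD45), Pax5, Ebf1, Cd22 and Blnk had reads in every library. Ptprc had 35704 and 27790 reads in the wildtype pair, 5683 in library 1 and 38260 in library 2 of the overexpression label. Blnk was also lower in library 1, with 964 reads against 8859 and 6927 in wildtype, as were Cd79a and Cd22. Pax5, Ebf1 and Cd79b were higher there, Pax5 with 4897 reads against 2915 and 2147. Levels across cell markers are given as CPM, reads scaled to a common total of reads in genes. Over 8 B lineage markers the sums were 5158 and 5733 CPM in wildtype, 3338 CPM in library 1 and 5626 CPM in library 2.

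In overexpression-labelled library 1 the class I chains, the peptide loading genes and Nlrc5 were lower than in wildtype and both immunoproteasome genes were higher, while B2m was not called. Of the 10 genes, 7 fell and 2 rose (limma, adjusted p under 0.05). Over all 12617 genes tested, 61.2% were called in the same comparison, where 34.4% fell and 26.8% rose, so a call as such is common in this library. The median difference was -0.69 log2 units over the 10 genes and -0.15 over all genes tested; scaling by library totals shifted the latter by 0.12, and by totals without the ribosomal RNA precursor Rn45s by 0.17. With no filter on low counts, limma called 0 of the 10 genes and 0 of 17297 genes in all, where 8162 genes had an unadjusted p under 0.05; the lowest adjusted p was then 0.0543. Limma-voom on the recovered reads called the same number of the 10 genes as the main test, 9. Normalised reads are recovered reads divided by the size factor of the library, and differences are on the deposited log2 scale.

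Promoters of the chain genes and of the Tap1-Psmb9 pair are shown because the heavy chains fell together, B2m was not called and the pair moved apart. Each window runs from 250 bases before to 50 bases after the RefSeq start (GRCm38.p6), read 5′ to 3′ on the gene's strand, and capitals mark matches on either strand to any of 4 motifs. The motifs are AANNGAAA (core of interferon response elements), TGACG (core bound by CREB and ATF factors), CCAAT (bound by NF-Y) and the NF-kappa B motif, and overlapping matches are joined. The windows are H2-K1 at chr17:34000298-34000597 on the minus strand, H2-D1 at chr17:35262844-35263143 on the plus strand, H2-T23 at chr17:36032652-36032951 on the minus strand, B2m at chr2:122147437-122147736 on the plus strand and Tap1 at chr17:34187306-34187605 on the plus strand.
H2-K1: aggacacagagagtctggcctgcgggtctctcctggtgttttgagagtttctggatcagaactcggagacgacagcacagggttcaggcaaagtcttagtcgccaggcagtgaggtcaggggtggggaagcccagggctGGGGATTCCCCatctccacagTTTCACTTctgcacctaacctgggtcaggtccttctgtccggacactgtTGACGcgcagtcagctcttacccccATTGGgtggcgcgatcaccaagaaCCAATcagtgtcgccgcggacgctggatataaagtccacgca
H2-D1: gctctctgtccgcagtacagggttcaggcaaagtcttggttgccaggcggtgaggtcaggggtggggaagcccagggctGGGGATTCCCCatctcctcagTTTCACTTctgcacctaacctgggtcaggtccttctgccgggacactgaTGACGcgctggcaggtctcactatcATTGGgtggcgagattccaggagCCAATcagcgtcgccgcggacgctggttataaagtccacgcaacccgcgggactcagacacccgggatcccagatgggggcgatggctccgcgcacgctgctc
H2-T23: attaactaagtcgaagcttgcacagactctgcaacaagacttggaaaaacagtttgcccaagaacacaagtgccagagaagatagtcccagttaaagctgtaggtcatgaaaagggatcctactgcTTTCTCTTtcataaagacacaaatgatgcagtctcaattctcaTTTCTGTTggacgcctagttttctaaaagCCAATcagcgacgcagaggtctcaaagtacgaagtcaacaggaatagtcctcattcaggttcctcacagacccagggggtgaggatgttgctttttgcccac
B2m: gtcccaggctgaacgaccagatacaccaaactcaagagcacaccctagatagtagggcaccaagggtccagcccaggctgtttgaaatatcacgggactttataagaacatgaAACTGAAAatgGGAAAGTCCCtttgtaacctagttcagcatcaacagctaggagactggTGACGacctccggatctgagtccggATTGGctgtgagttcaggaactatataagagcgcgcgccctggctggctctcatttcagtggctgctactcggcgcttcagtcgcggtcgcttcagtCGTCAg
Tap1: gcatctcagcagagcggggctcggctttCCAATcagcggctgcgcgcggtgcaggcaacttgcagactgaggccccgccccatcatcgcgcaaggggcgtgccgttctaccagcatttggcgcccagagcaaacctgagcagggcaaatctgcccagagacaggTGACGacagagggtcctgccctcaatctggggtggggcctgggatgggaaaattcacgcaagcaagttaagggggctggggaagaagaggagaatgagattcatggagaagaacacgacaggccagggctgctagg
H2-K1, H2-D1 and B2m each held all 4 motifs, which 34 of 27025 promoter windows did (0.13%). H2-T23 held AANNGAAA and CCAAT, with no match to TGACG or the NF-kappa B motif. Singly, AANNGAAA was in 24.2% of the windows, TGACG in 21%, CCAAT in 37.9% and the NF-kappa B motif in 8.2%. The motifs were picked because class I promoters are known for them, so the count describes the letters and tests nothing. Over 239 aligned bases the H2-K1 and H2-D1 windows were 88.3% identical. The promoter table matched 8 of the 10 genes, without Tap2 and Nlrc5. Among the windows not printed, that of Tapbp held CCAAT alone and that of Psmb8 held none of the 4 motifs.

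The heavy chains bind the peptide and face the T cell receptor. H2-K1 (ENSMUSG00000061232.16, chromosome 17, 33996017 to 34000347, minus strand, GRCm38), one of the classical chains, had 33431 and 37011 normalised reads in the wildtype libraries, 21403 in overexpression-labelled library 1 and 41145 in overexpression-labelled library 2. Library 1 was the lowest of the 4 and library 2 the highest. H2-K1 fell by 0.72 in library 1 (SE 0.119, limma adjusted p = 0.000182), to 0.608 of the wildtype mean. H2-D1 (ENSMUSG00000073411.11, chromosome 17, 35262730 to 35267499, plus strand), the other classical chain, had 28651 and 33368 normalised reads in wildtype, 19466 in library 1 and 32493 in library 2. Only library 1 lay outside the wildtype range. H2-D1 fell there by 0.67 (SE 0.126, limma adjusted p = 0.000495), a ratio of 0.628.

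H2-T23 encodes Qa-1, a nonclassical chain that presents leader peptides of other class I chains to the CD94-NKG2A receptor of natural killer cells. H2-T23 (ENSMUSG00000067212.8, chromosome 17, 36029773 to 36032855, minus strand) had 1403 and 1639 normalised reads in wildtype, 783 in library 1 and 2258 in library 2. The overexpression-labelled libraries thus lay on opposite sides of the wildtype pair. H2-T23 fell by 0.90 in library 1 (SE 0.201, limma adjusted p = 0.0017), and its difference of 0.56 in library 2 did not pass (SE 0.185, limma adjusted p = 0.168). Between the overexpression-labelled libraries it differed by 1.46, the lower value being in library 1 (difference -1.46, SE 0.222, limma adjusted p = 0.00014). Class I genes resemble each other, and the value of H2-T23 is the least certain of the 3 chains: 28.8% of the 50-base windows of its transcript also occur in transcripts of other genes, against 14.3% for H2-D1 and 8.79% for H2-K1. How the authors treated reads that match several genes is not given in the sources used here.

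B2m encodes beta-2-microglobulin, the light chain that all these heavy chains need at the cell surface. B2m (ENSMUSG00000060802.8, chromosome 2, 122147686 to 122153083, plus strand) had 106545 and 125264 normalised reads in wildtype, 104029 in library 1 and 134084 in library 2. The differences of -0.15 in library 1 (SE 0.127, limma adjusted p = 0.314) and 0.21 in library 2 (SE 0.137, limma adjusted p = 0.481) did not pass. The sign in library 1 depends on the scaling, with a B2m difference of 0.05 when reads are scaled by library totals without Rn45s. Per length, H2-K1 and H2-D1 together came to 0.182 and 0.175 of the B2m level in wildtype, 0.123 in library 1 and 0.171 in library 2. The ratio was lowest in library 1 and was not tested. Its size depends on the lengths used, all annotated exons joined: 2938 bases for H2-K1, 2579 for H2-D1 and 860 for B2m. Single transcripts of H2-K1 and H2-D1 had 1619 and 2102 bases, and that of B2m had 860.

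**Figure D1:**
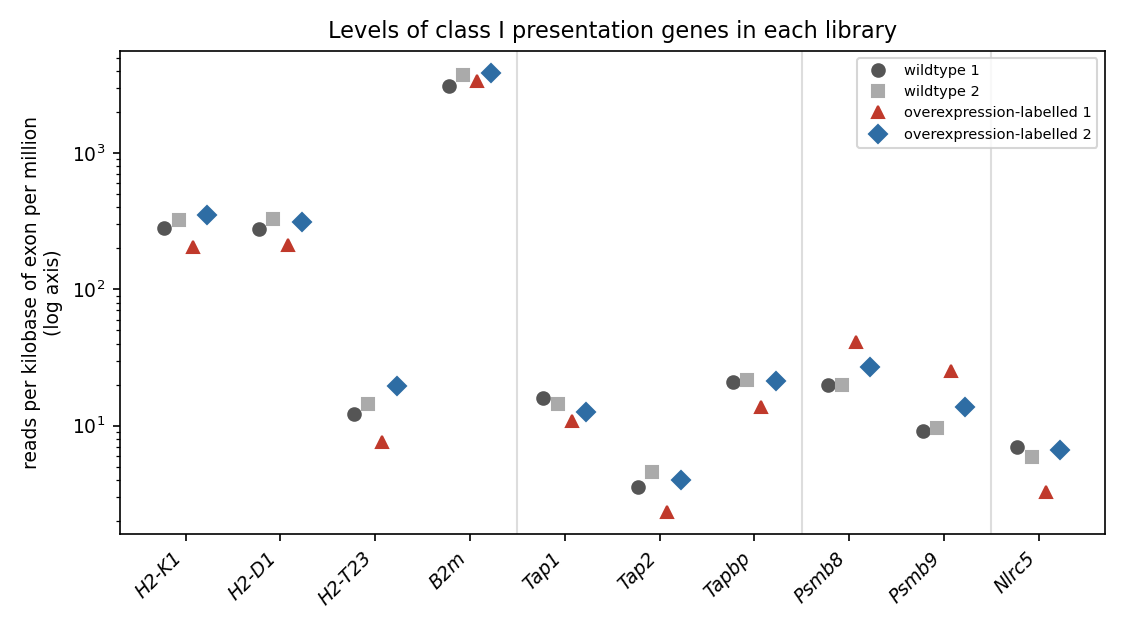
CPM per kilobase of exon (RPKM, log axis) of the 10 genes in each of the 4 libraries, grouped by vertical lines into chains, peptide loading, immunoproteasome and transactivator. B2m stands highest at 3087 to 3890 RPKM, and the triangles of overexpression-labelled library 1 lie above the other libraries for Psmb8 and Psmb9 alone.

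Levels can be compared between genes only per length, as RPKM, the CPM per kilobase of annotated exons. This length joins all annotated exons of a gene and can exceed that of a single transcript. It was 3660 against 1352 bases for Psmb9 and 3381 against 1628 for Psmb8, but 860 for B2m by either length. The order of genes below therefore depends on the length used, and no order was computed with transcript lengths. B2m averaged 3399 ± 442 RPKM (SD, n = 2) in wildtype, far above H2-D1 at 303 ± 37.5 and H2-K1 at 302 ± 26.6, which overlapped each other. Tapbp followed at 21.4 ± 0.659, Psmb8 at 19.7 ± 0.0346, Tap1 at 15.2 ± 0.959 and H2-T23 at 13.3 ± 1.67. The lowest were Psmb9 at 9.37 ± 0.351, Nlrc5 at 6.44 ± 0.725 and Tap2 at 4.06 ± 0.689. Apart from H2-D1 and H2-K1, no neighbours in this order overlapped between the wildtype libraries, although H2-T23 in wildtype library 2 and Tap1 in the same library both stood at 14.5 RPKM. In library 1 Psmb9 moved from the eighth to the fifth place and Tapbp moved from the fourth to the sixth.

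TAP1 and TAP2 form the peptide transporter. Tap1 (ENSMUSG00000037321.17, chromosome 17, 34187553 to 34197225, plus strand) had 3485 and 3115 normalised reads in wildtype, 2116 in library 1 and 2774 in library 2, so that both overexpression-labelled libraries lay below both wildtype libraries. Tap1 fell by 0.62 in library 1 (SE 0.16, limma adjusted p = 0.0043), and the difference of -0.24 in library 2 did not pass (SE 0.159, limma adjusted p = 0.494). Tap2 (ENSMUSG00000024339.12, chromosome 17, 34203527 to 34216321, plus strand) had 542 and 674 normalised reads in wildtype, 314 in library 1 and 601 in library 2. Library 1 was the lowest, and library 2 lay within the wildtype range. Tap2 fell by 0.83 in library 1 (SE 0.271, limma adjusted p = 0.0169); the call was lost with scaling by totals without Rn45s (difference -0.66, limma adjusted p = 0.0537). With 134 recovered reads, before scaling, in library 1 and 244 to 305 in the others, Tap2 had the fewest reads of the 10 genes.

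Tapbp encodes tapasin, which bridges the transporter and the empty class I molecule. Tapbp (ENSMUSG00000024308.15, chromosome 17, 33915899 to 33929292, plus strand) had 3042 and 3107 normalised reads in wildtype, 1787 in library 1 and 3119 in library 2. Library 1 alone was low. Tapbp fell there by 0.76 (SE 0.159, limma adjusted p = 0.00106), and in library 2 it differed from wildtype by 0.02 (SE 0.155, limma adjusted p = 0.97).

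Psmb8 and Psmb9 encode inducible catalytic subunits, LMP7 and LMP2, which replace constitutive subunits and turn the proteasome into the immunoproteasome. Psmb8 (ENSMUSG00000024338.15, chromosome 17, 34197721 to 34201454, plus strand) had 2674 and 2620 normalised reads in wildtype, 4994 in library 1 and 3674 in library 2. Psmb9 (ENSMUSG00000096727.3, chromosome 17, 34181987 to 34187764, minus strand) had 1341 and 1382 in wildtype, 3295 in library 1 and 2004 in library 2. For both genes the wildtype libraries were close together and both overexpression-labelled libraries lay above them, library 1 the higher. Psmb8 rose by 0.90 in library 1 (SE 0.151, limma adjusted p = 0.000187), a ratio of 1.89, and Psmb9 by 1.24 (SE 0.174, limma adjusted p = 4.16e-05), a ratio of 2.42. In library 2 the differences were 0.46 for Psmb8 (SE 0.156, limma adjusted p = 0.174) and 0.54 for Psmb9 (SE 0.182, limma adjusted p = 0.176), which did not pass. No 50-base window of either transcript occurs in another gene's transcripts.

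**Figure D2:**
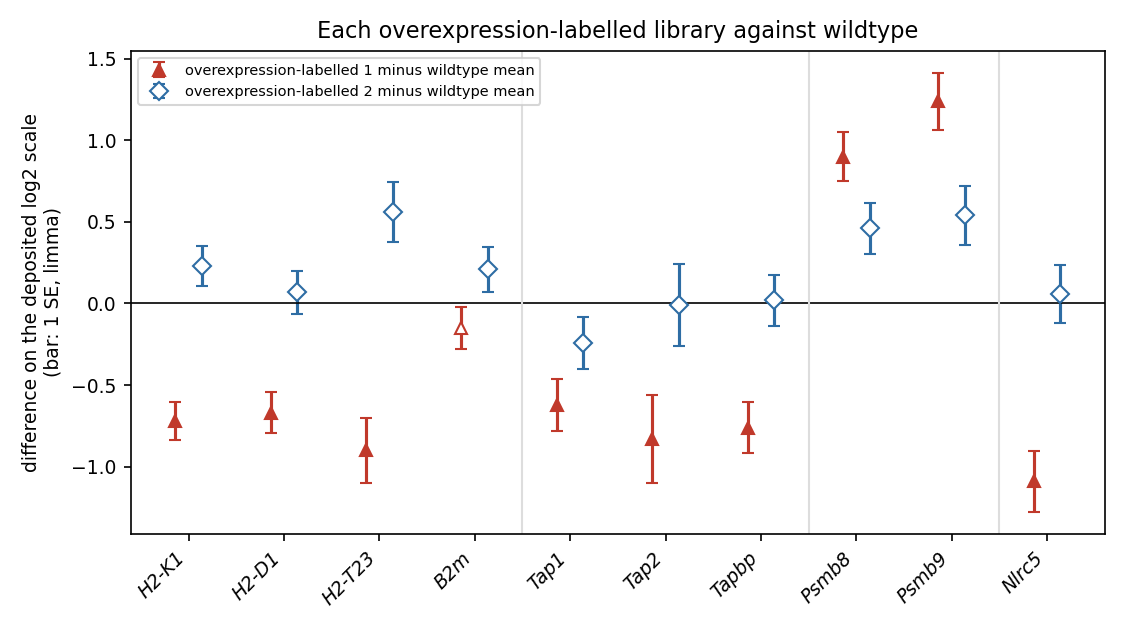
Difference of each overexpression-labelled library from the wildtype mean on the deposited log2 scale, with 1 SE from limma; filled symbols have an adjusted p under 0.05. In library 1 (triangles) 7 genes lie below 0 and 2 above it among the filled symbols, and no symbol of library 2 (diamonds) is filled.

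Neighbouring genes went in opposite directions in library 1. Psmb9, Tap1, Psmb8 and Tap2 lie in this order within 34335 bases of chromosome 17, in the class II region of the MHC. Psmb9 and Tap1 are read away from each other from starts 226 bases apart, so their promoter windows share 275 of 300 bases, and the Tap1 window printed above holds both starts. Of the motifs searched, that shared stretch held TGACG and CCAAT. In library 1 Psmb9 rose by 1.24 and Tap1 fell by 0.62, then along the chromosome Psmb8 rose by 0.90 and Tap2 fell by 0.83. The ratio of Psmb9 to Tap1 per length was 0.576 and 0.664 in wildtype, 2.33 in library 1 and 1.08 in library 2, higher in both overexpression-labelled libraries than in either wildtype library; it was not tested. The annotated models of Psmb9 and Tap1 overlap by 212 bases, every one of the 10 genes but H2-K1 and H2-D1 overlaps another gene in the annotation, and whether the counting used strand is not given in the sources used here.

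**Figure D3:**
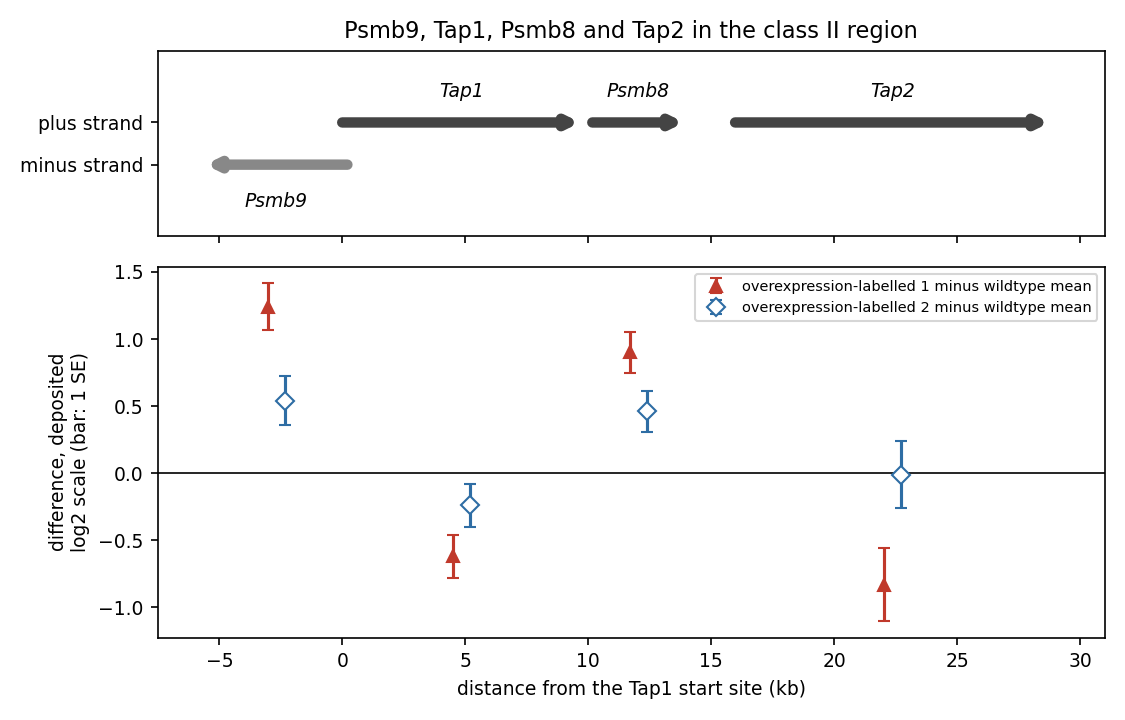
Upper panel, positions and strands of Psmb9, Tap1, Psmb8 and Tap2 by distance from the Tap1 start (kb); lower panel, their differences from the wildtype mean on the deposited log2 scale with 1 SE, filled where the adjusted p is under 0.05. In library 1 (triangles) Psmb9 at 1.24 and Psmb8 at 0.90 alternate with Tap1 at -0.62 and Tap2 at -0.83.

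The rise of the inducible subunits came with higher levels of other proteasome genes in library 1. Over 12 further genes tested for catalytic, cap and assembly subunits, the median difference was 1.06, against -0.15 over all genes tested. Psmg1, an assembly chaperone, rose by 2.32, Pomp, which matures the core particle, by 1.80, and Psmb10, the inducible subunit MECL-1, by 1.41 (limma adjusted p = 3.5e-05, 1e-06 and 0.000224). The activator genes Psme1 and Psme2 (PA28) rose by 0.50 and 0.81 (limma adjusted p = 0.00719 and 0.00215); the call of Psme1 was lost with an untrended prior. Of the constitutive partners, Psmb5 rose by 1.14 (limma adjusted p = 0.00196) and Psmb7 by 1.05 (limma adjusted p = 0.000148), and the difference of 0.40 for Psmb6 did not pass (limma adjusted p = 0.0585), although it did under the other 3 scalings. In library 2, 0 of the 12 genes passed (median 0.06), against 1.66% of all genes tested in either direction.

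Set against its constitutive partner per length, each inducible subunit gave another order of libraries. The ratio of Psmb9 to Psmb6 was 0.385 and 0.358 in wildtype, 0.677 in library 1 and 0.571 in library 2. Both overexpression-labelled libraries lay above wildtype. The ratio of Psmb8 to Psmb5 was 1.54 and 1.9 in wildtype, 1.35 in library 1 and 3.03 in library 2, and that of Psmb10 to Psmb7 was 0.58 and 0.681 in wildtype, 0.846 in library 1 and 1.33 in library 2. For Psmb8 the ratio was lowest in library 1, where Psmb5 was also high, and highest in library 2; these ratios were not tested.

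**Figure D4:**
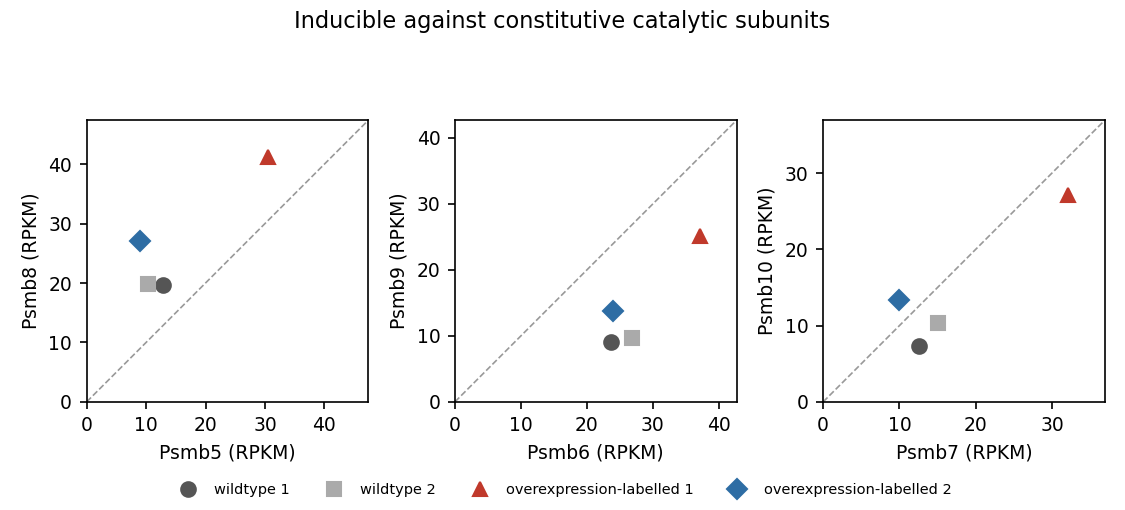
RPKM of each inducible catalytic subunit (vertical) against its constitutive partner (horizontal) in the 4 libraries. The dashed line marks equal RPKM, which depends on the exon lengths used. The triangle of overexpression-labelled library 1 is highest on both axes in each panel, and library 2 (diamond) is the only one above the line for Psmb10, while all 4 are above it for Psmb8.

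Of 16 other genes of peptide loading and trimming tested in library 1, 7 rose and 1 fell, with a median of 0.25, where 26.8% and 34.4% of all genes did. The 1 that fell was Lnpep, an endosomal aminopeptidase gene (-0.55, limma adjusted p = 0.00146), a call lost with an untrended prior. Blmh, a cytosolic peptidase, rose by 1.49, Sec61b, a part of the translocation channel, by 1.48, and Prkcsh, a subunit of glucosidase II, by 1.36 (limma adjusted p = 5.28e-06, 2.91e-05 and 0.000521). Of the chaperones that hold the class I chain, Canx rose by 0.76 and Pdia3 by 0.91 (limma adjusted p = 0.000241 and 0.000186), and Calr, at 0.03, did not pass (limma adjusted p = 0.856). Erap1, which trims peptides in the endoplasmic reticulum, differed by 0.25 and the tapasin relative Tapbpl by -0.22, neither past the threshold (limma adjusted p = 0.158 and 0.477); Erap1 passed under the 2 scalings by totals. In library 2, 0 of the 16 passed (median -0.04).

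Nlrc5 is the transactivator gene of the class I pathway. Nlrc5 (ENSMUSG00000074151.13, chromosome 8, 94434356 to 94527272, plus strand) had 2371 and 1976 normalised reads in wildtype, 985 in library 1 and 2266 in library 2. Library 1 was less than any other library, and library 2 lay within the wildtype range. Nlrc5 fell by 1.09 in library 1 (SE 0.188, limma adjusted p = 0.000238), to 0.453 of the wildtype mean, and differed by 0.06 in library 2 (SE 0.178, limma adjusted p = 0.896). Ciita, the gene of the class II transactivator, had 6421 and 8057 normalised reads in wildtype, 82 in library 1 and 8937 in library 2 (difference -5.73 in library 1, limma adjusted p = 4.47e-11).

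A further list held Ciita with the DNA-binding factors and coactivators of class I and class II promoters. Over the 14 tested, the median difference in library 2 was -0.04, against 0.01 over all genes tested. In library 1 it was 0.47, against -0.15 over all genes tested. Besides Ciita, Rfx5, the DNA-binding subunit of the RFX complex, fell by 1.1 (limma adjusted p = 0.000334), and its partners Rfxap at 0.46 and Rfxank at 0.19 did not pass (limma adjusted p = 0.158 and 0.683). The coactivator gene Ep300 fell by 0.68 (limma adjusted p = 0.000346), a call lost with an untrended prior. Nfya, a subunit of NF-Y, rose by 1.65 and the acetyltransferase gene Kat2a by 1.12 (limma adjusted p = 2.32e-06 and 0.000221).

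Genes of interferon and NF-kappa B signalling, which act on class I promoters through the other motifs, were mostly lower in library 1. Over the 27 tested, the median difference was -1.03, against -0.15 over all genes tested. Irf7, with a difference of -3.0, Irf8, with -2.87, and the inhibitor gene Nfkbie, with -2.52, fell the most of those with at least 5 CPM (limma adjusted p = 2.25e-06, 1.6e-09 and 1.47e-08). The kinase gene Jak2 fell by 2.13 and the NF-kappa B subunit gene Rela by 1.25 (limma adjusted p = 2.39e-08 and 1.11e-05), while Irf2 rose by 1.30 (limma adjusted p = 0.000149).

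In library 2 the median difference over the 27 genes was -0.18, against 0.01 over all genes tested. Irf1, an activator of class I, Tap1 and Psmb9 promoters, had 5056 and 3905 normalised reads in wildtype, 1412 in library 1 and 2095 in library 2. It fell by 1.61 in library 1 (SE 0.176, limma adjusted p = 4.16e-06) and by 1.06 in library 2 (SE 0.176, limma adjusted p = 0.0118). Ifnar1, a subunit of the type I interferon receptor, fell by 0.68 and 0.84 (limma adjusted p = 0.00174 and 0.0225). In library 2 both calls were lost with totals without Rn45s, with no filter and with an untrended prior, and that of Ifnar1 also with recomputed size factors and with log2 of normalised reads plus 0.5. In library 1 the untrended prior ended the call of Ifnar1. The 2 comparisons share their wildtype libraries.

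Of 30 interferon-stimulated genes tested in library 1, 7 rose and 10 fell (median 0.08), shares near those over all genes tested (26.8% and 34.4%). Gbp2, a guanylate-binding protein gene, rose by 2.83, the ubiquitin ligase gene Dtx3l by 2.71 and Xaf1 by 2.36 (limma adjusted p = 1.76e-06, 6.98e-08 and 3.59e-05). The antiviral gene Oasl1 (-2.17) and the chemokine gene Cxcl10 (-1.76) were among those that fell. In library 2, 0 of the 30 passed (median 0.19).

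**Figure D5:**
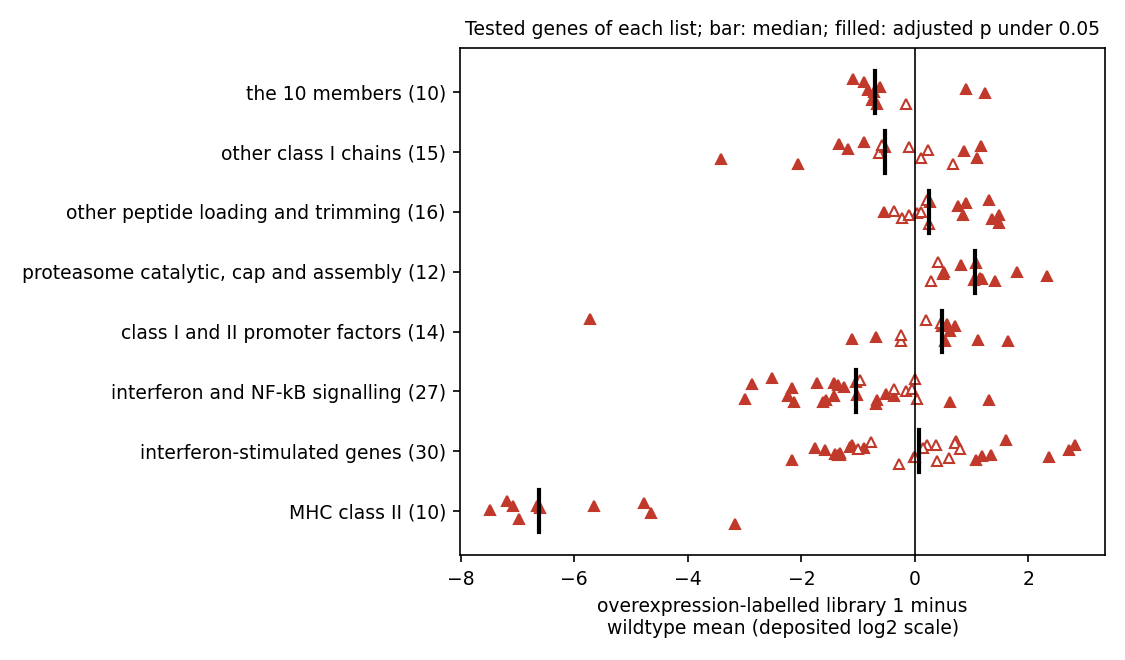
Differences of overexpression-labelled library 1 from the wildtype mean (deposited log2 scale) for the tested genes of each list, with the number of genes in brackets, the median as a bar and filled symbols for an adjusted p under 0.05. The 10 genes have a median of -0.69, proteasome genes one of 1.06 and class II genes one of -6.63.

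Of 34 other class I chain genes, 15 were tested, 10 had no reads in any library and 5 had under 10 in all. H2-T3, H2-M2, H2-L and Procr had at least 10 reads in all but did not pass the filter. Over the 15 genes tested, the median difference in library 1 was -0.53, against -0.15 over all genes tested. H2-Q5 fell by 3.41, H2-K2 by 1.33 and H2-M3, which presents N-formylated peptides, by 1.18 (limma adjusted p = 8.94e-07, 0.000686 and 0.000157). Of the less related chains, Cd1d1, which presents lipids, rose by 1.09 and Mr1, which presents vitamin metabolites, by 0.87 (limma adjusted p = 0.00174 and 0.0306); the call of Mr1 was lost with an untrended prior. In library 2, 0 of the 15 passed (median 0.17). Values of the Qa and T region genes are uncertain because they are near copies. H2-T10 shares 42.95% of its 50-base windows with other transcripts, mostly of H2-T22, which had 1 read in all. H2-Q6 and H2-Q7, with 0 reads and 1 read, share 32% and 34.9%. No such share was obtained for H2-Q5 and H2-K2, and H2-Q5 had 8 recovered reads in library 1.

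Class II genes, which present peptides from outside the cell, had larger differences than any of the 10 class I genes in library 1. All 10 that were tested fell, with differences from -3.17 for H2-Ob to -7.49 for H2-Aa (limma adjusted p = 1.59e-09 and 6.27e-14), and in library 2, 0 passed (median -0.01). Per length, H2-K1 stood at 0.138 and 0.164 of the level of H2-Aa in wildtype, at 0.206 in library 2 and at 17 in library 1. H2-Aa exceeded H2-K1 in 3 libraries and was below it in library 1.

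In overexpression-labelled library 2 none of the 10 genes passed the threshold by limma, where 1.66% of all genes tested did (0.769% higher and 0.888% lower). At an unadjusted p under 0.05 there were 3, namely H2-T23, Psmb8 and Psmb9, beside 2006 of all 12617 genes. H2-K1 differed by 0.23 (SE 0.125, limma adjusted p = 0.41), H2-D1 by 0.07 (SE 0.132, limma adjusted p = 0.833) and Tap2 by -0.01 (SE 0.251, limma adjusted p = 0.99). Limma-voom called 0 of the 10 genes too. The median difference was 0.14 over the 10 genes and 0.01 over all genes tested.

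The overexpression-labelled libraries differed from each other in 8 of the 10 genes, with 6 lower and 2 higher in library 1. Of all genes tested 52.6% were called, 30.1% lower and 22.4% higher, in this comparison, whose spread comes from the wildtype pair. H2-K1 differed by -0.94 (SE 0.141, limma adjusted p = 0.000119), Nlrc5 by -1.15 (SE 0.213, limma adjusted p = 0.000619) and Psmb9 by 0.70 (SE 0.199, limma adjusted p = 0.01). B2m at -0.37 (SE 0.153, limma adjusted p = 0.0607) and Tap1 at -0.38 (SE 0.185, limma adjusted p = 0.0994) did not pass, although B2m did by limma-voom (adjusted p = 0.00933). Tap2, with a difference of -0.82, lost its call under the other 3 scalings. With no filter on low counts all calls among the 10 genes were lost, and with an untrended prior most were. Calls over all genes also became fewer in both settings.

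Taking both overexpression-labelled libraries as 1 group against wildtype, which is the contrast the series states, limma called 0 of the 10 genes and 0% of all genes tested; 280 genes had an unadjusted p under 0.05, none of them among the 10, and limma-voom called 0 genes as well. The groups did not overlap for Psmb8 and Psmb9, which were higher, and for Tap1, which was lower; 19.6% of all genes were higher and 23% lower without overlap. On the deposited log2 scale Psmb9 had a wildtype mean of 10.47 ± 0.0295 (SD, n = 2) and a mean of 11.36 ± 0.495 (SD, n = 2) under the overexpression label, a difference of 0.89 (SE 0.352, limma adjusted p = 0.726). The means of Psmb8 were 11.4 ± 0.0202 (SD, n = 2) and 12.09 ± 0.309 (SD, n = 2), a difference of 0.68 (SE 0.285, limma adjusted p = 0.726). Those of Nlrc5 were 11.12 ± 0.181 (SD, n = 2) and 10.61 ± 0.816 (SD, n = 2), so the spread within the overexpression-labelled group exceeded the difference of -0.51 (SE 0.476, limma adjusted p = 0.729). The median difference of the 10 genes was -0.27, which became 0.14 without overexpression-labelled library 1 and -0.69 without library 2. Leaving out library 2 gives the comparison of library 1 with wildtype described above.

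Markers of several other cell types also differed between the libraries, in different ways, and their part in the results was not tested. In bulk libraries fewer cells of a type and less RNA per cell cannot be told apart. Summed levels of 10 T and NK cell markers were 64.7 and 67.1 CPM in wildtype, 2.75 CPM in library 1, where Cd8a, Gzma and Nkg7 were at 0 reads, and 38.3 CPM in library 2. Of 7 classical dendritic cell markers the sums were 44.4, 37.8, 3.53 and 34 CPM in the same order, and of 7 plasmacytoid dendritic cell markers 452, 353, 163 and 370 CPM. Most of the last sum in library 1 was Tcf4, with 2319 recovered reads, while Siglech had 4 there (1129 and 321 in wildtype), Ccr9 had 12 (979 and 380) and Klk1 had 0 (149 and 83). Neutrophil markers, 10 genes, came to 6.2 and 109 CPM in wildtype, 141 CPM in library 1 and 1613 CPM in library 2, and 8 monocyte and macrophage markers to 64.9, 79.2, 37.1 and 244 CPM. The sums of 5 plasma cell markers ran from 898 to 1344 CPM, mostly from Irf4; in recovered reads Jchain had 50 in library 1 (2498 and 1994 in wildtype) and Sdc1 had 401 (21 and 58). Sums ran for 6 stromal and endothelial markers from 54.1 to 91.4 CPM and for 7 erythroid markers from 3.92 to 5.5 CPM, with the 4 globin genes at 0 reads in every library.

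Among 8866 other genes with a mean of at least 5 CPM, those whose 4 values, each minus the wildtype mean, lay closest to the pattern of Nlrc5 were Tcf4, Tbc1d10a, N4bp1, Tmem199 and Zswim8, at Euclidean distances of 0.0296 to 0.0899 log2 units. Tcf4, a basic helix-loop-helix factor gene that also stands in the plasmacytoid marker list, differed by -1.09 in library 1 and 0.05 in library 2, next to -1.09 and 0.06 for Nlrc5. Closest to the mean pattern of the 10 genes were Tor1aip1, Fam193a, Rpl12, Whsc1l1 and Rpl23, with distances of 0.0033 to 0.0442. The likeness rests on 4 libraries, of which library 1 stands apart.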

How the data were processed

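RNA of B220-sorted marrow cells was sequenced from 2 wildtype and 2 overexpression-labelled libraries, grouped by the genotype label; 1 wildtype label is misspelled, and 1 column name differs in a digit from its sample's title. The tools the authors ran were STAR, HTSeq and DESeq2, on mm10, per the submitters' processing notes; versions, settings and annotation are not given in the sources used here. Values as deposited are log2 values that share a floor of 4.949. They have the form of a variance stabilizing transformation, from which whole reads were recovered (100% of values within 0.01 of a whole number). The filter asked for 10 reads (scaled to the median library) in 2 libraries, and 15 reads in total. Tests used limma-trend (version 3.58.1 in R 4.3.3) on the deposited values, two-sided, with Benjamini-Hochberg adjustment over all 12617 genes. A lone library is assumed to vary like the wildtype pair. RPKM and CPM were computed from recovered reads, RPKM with GENCODE M21 exons (GRCm38); identifiers and gene positions are from the same annotation.

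The genes and lists were chosen with earlier results of these data known. Named are the 10 genes, Arid5b, the 3 largest called differences in library 1 per list (mean at least 5 CPM; class II genes by range) and the nearest patterns; other list genes were named after their values were seen. Some marker and signalling genes are not reported here by name. Alternatives were other scalings, filters, priors, a pseudocount of 0.5, limma-voom and leaving out each library.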

Additional observations from a re-analysis of the deposited data

How the results depend on the processing

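Under the alternatives run, 0 called differences of the 10 genes changed sign. In library 1 against wildtype the median of the 10 genes was -0.69, and it became -0.54 with library totals, -0.49 with totals without Rn45s and -0.59 with recomputed size factors, while all genes shifted by 0.12, 0.17 and 0.08; it ran from -0.78 to -0.67 when a wildtype library was left out, which leaves no test. With no filter 0 of 10 genes and 0 genes in all were called in library 1. The untrended prior, added after seeing the data, lost H2-D1 and Tap1 there. In library 2 the number of genes called, 209, was 58 with totals without Rn45s, 75 with recomputed size factors, 56 with log2 of normalised reads plus 0.5, 614 by limma-voom, 0 with no filter and 0 with the untrended prior, and the median of the 10 genes ran from 0.13 to 0.24 without a wildtype library. Between the overexpression-labelled libraries the median, -0.76, was -0.60, -0.56 and -0.66 under the 3 scalings in the order above; with no filter 0 of 10 genes and 2486 genes were called, and with the untrended prior 3 of 10. Leaving out a wildtype library leaves that comparison without a spread, so it was not run. For both libraries together the median of -0.27 was -0.18 with totals without Rn45s and ran from -0.69 to 0.14 when a library was left out, with 0 to 9 of the 10 genes and 0 to 7721 genes called. No paired analysis was possible because GEO's labels give no replicate numbers, and the numbers used here only follow the order of deposit. Tap2, with 134 to 305 reads, is the gene most limited by depth.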
